A study of Rattus norvegicus with 45 samples.

Results

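Gastrocnemius muscle of female Sprague Dawley rats that ran on a treadmill was compared between 4 arrays from animals given cerivastatin at 1.0 mg/kg/day and 4 arrays from animals given vehicle. These 8 arrays, chosen by their labels alone, are part of 45 in the series, which also covers lower doses, rats that did not run and the soleus, a slow muscle. Both groups were dosed for 14 days and ran for 20 min a day at 20 m/min on 5 days of the week, so that exercise is common to treated and vehicle animals. Other labels of the series name the vehicle as methylcellulose. The aims of the study cover the effect of the drug on transcripts, that of combining drug and exercise, and the link of fibre type to sensitivity. Arrays of a group are biological replicates, per the series' design text, and total RNA from a lysate of muscle tissue was measured. In such tissue, fewer cells of a type and less RNA per cell cannot be told apart.

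Cerivastatin is a statin, a blocker of the enzyme that makes mevalonate. Cells build cholesterol from mevalonate, and also the farnesyl and geranylgeranyl lipids that anchor small GTPases to membranes, the side chain of coenzyme Q and the dolichol on which protein sugars are assembled. When sterols run low, the SREBP transcription factors raise the genes of the pathway. Skeletal muscle injury is the known toxicity of the class, and damaged muscle is cleared by phagocytes and rebuilt from satellite cells.

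Of 21729 probe sets tested, 4990 were higher (23%) and 4434 lower (20.4%) in treated muscle at an adjusted p under 0.05 (limma, Benjamini-Hochberg), 43.4% in all. Counted by gene, 3240 of 11684 were higher (27.7%) and 2558 lower (21.9%), 49.6% in all, and every count of list members below is to be read against these shares. The median log2 difference was 0.07 over all genes. The balance of directions depends on how arrays are scaled. With each array centred on the median of its tested probe sets, which moves the median of all probe sets from -0.006 to -0.281, 3696 were higher and 6315 lower. Differences are given as log2 treated minus vehicle, with ± for the SE, and "rose" and "fell" are used for genes past the threshold. Signals are the deposited array values, listed for replicates 1 to 4 with treated animals first.

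The treated animals were not equally affected. Replicates 2 and 4 correlated at 0.97, the closest of any arrays in the series. They were together the lowest 2 of the 4 treated arrays in 1818 of the 2558 genes that fell (71.1%), and the highest 2 in 2434 of the 3240 that rose (75.1%). Averaging them as 1 animal left 4054 probe sets higher and 3606 lower. The genes for the triad, the junction at which the muscle's surface signal releases calcium, had median shifts from the vehicle mean of -1.41, -3.48, -1.39 and -3.06 in treated replicates 1 to 4. Macrophage markers shifted by 3.45, 4.72, 3.85 and 5.03. Every treated animal therefore moved the same way in both lists, and replicates 2 and 4 moved farther. The 5' to 3' signal ratio of Gapdh, a sign of RNA integrity, was 0.733 to 0.806 in treated and 0.837 to 0.888 in vehicle arrays, and that of actin 0.437 to 0.578 and 0.35 to 0.469. The part of these ratios in the results was not tested.

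**Figure D1:**
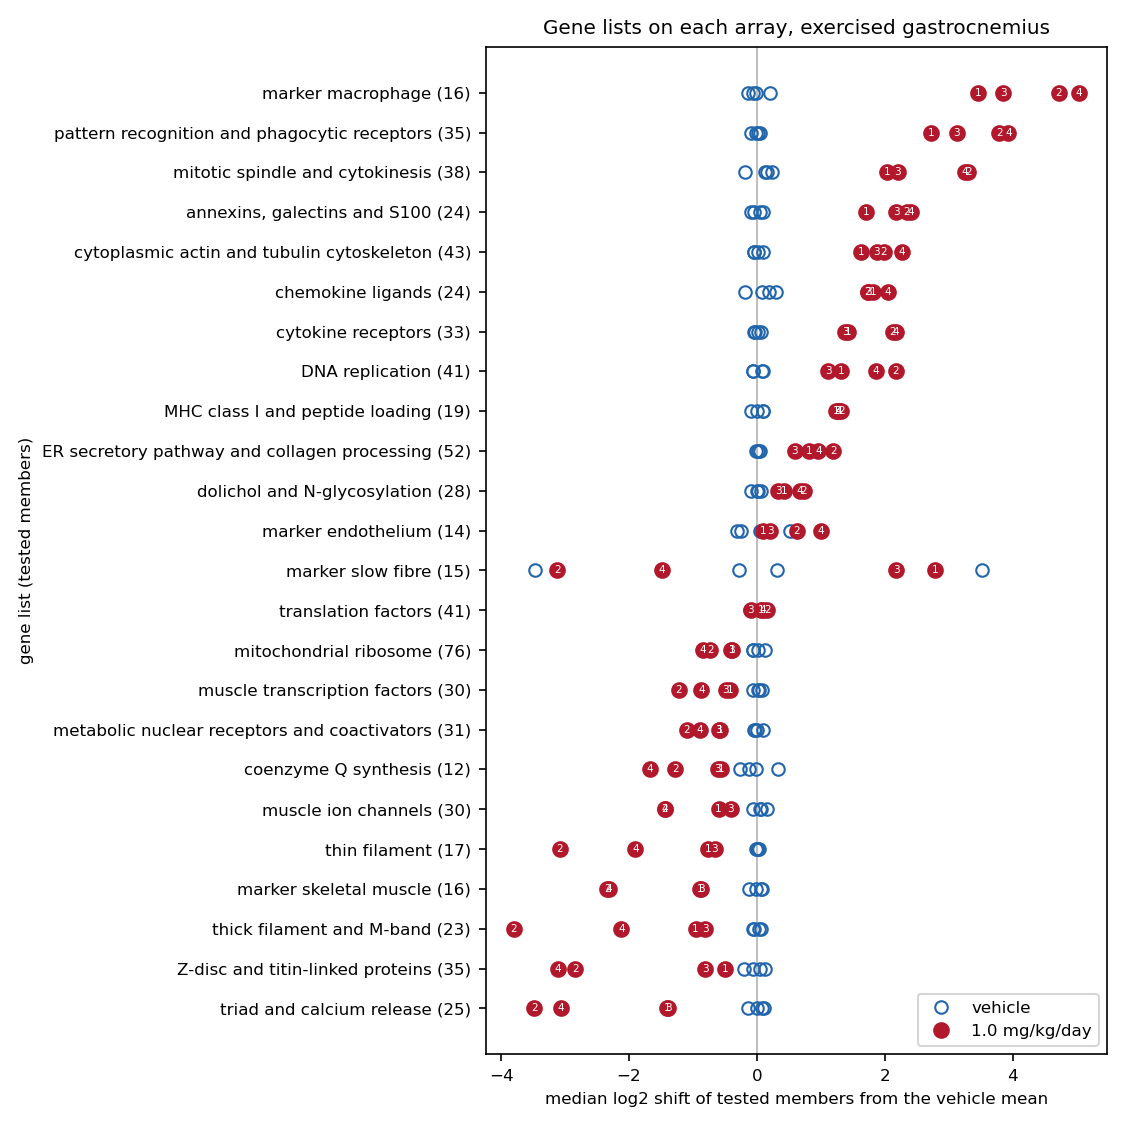
Median log2 shift of the tested members of 24 gene lists on each array, relative to the mean of the 4 vehicle arrays. Each point is 1 array, with treated arrays as numbered filled points and vehicle arrays as open points. Macrophage, mitotic and phagocytic receptor lists lie to the right in all 4 treated arrays and triad, Z-disc and thick filament lists to the left, with replicates 2 and 4 farthest in most of them, while slow fibre markers scatter widely in both groups.

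The arrays carried the label's tissue. Of 16 skeletal muscle markers, 14 fell at the high dose, with a median difference of -1.67. Acta1, the actin of the contractile filament, read 54241, 36508, 58229 and 44252 in treated and 85070.2, 89929, 96277 and 97844 in vehicle animals, a difference of -0.95 ± 0.19 (adjusted p = 0.000294). The groups did not overlap, and replicates 2 and 4 were the lowest. With quantile normalization of the arrays the difference was -0.03 and did not pass. Myh4, the fastest myosin heavy chain, read 21554, 18494, 14607 and 17642 against 71475, 61047, 74533 and 89696 and fell by 2.04 ± 0.41. It was nearly even among the treated animals. With all 45 arrays in the fit its adjusted p was 0.28. Myh1, another fast myosin, read 12572, 3672, 13742 and 4758 against 13427, 22546, 12569.8 and 11224, and its difference of -0.95 ± 0.40 did not pass the threshold (adjusted p = 0.0548), although 3 of its 5 probe sets did. Myh2, of fast oxidative fibres, differed by -1.67 ± 1.15 and the perinatal Myh8 by 0.32 ± 0.85, and neither passed.

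Slow fibre genes varied between animals rather than between groups. Myh7, the slow myosin heavy chain, read 42294, 91.9, 37253 and 1719 in treated animals and 9892, 84953, 3793 and 165 in vehicle animals. High and low pieces occurred in both groups, the SD on the log2 scale was 4.13 in treated and 3.70 in vehicle arrays, and the difference of -0.25 ± 1.94 has an adjusted p of 0.931. Over 15 slow fibre markers the median shift was 2.79, -3.12, 2.18 and -1.49 in treated and 0.32, 3.51, -0.28 and -3.47 in vehicle replicates 1 to 4. Replicates 2 and 4 were the treated pieces poorest in slow fibre transcripts as well as those with the deepest losses of triad genes. The median shift of vehicle replicate 4 was lower still, while its mean log2 level of these markers was 8.51 against 8.23 in treated replicate 2, so that the order of these pieces depends on the measure. The triad median shift of vehicle replicate 4 was 0.08. With the slow fibre level of each array as a covariate, 5063 probe sets were higher and 4571 lower. With each gene read by its probe set of highest mean, only 3 slow fibre markers passed. All were lower, namely Mybph, Actn2 and Myh6, and the first and second of these are also made in fast fibres. Atp2a2, another of the markers, did not pass by that probe set, but 2 of its 5 probe sets were higher.

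**Figure D2:**
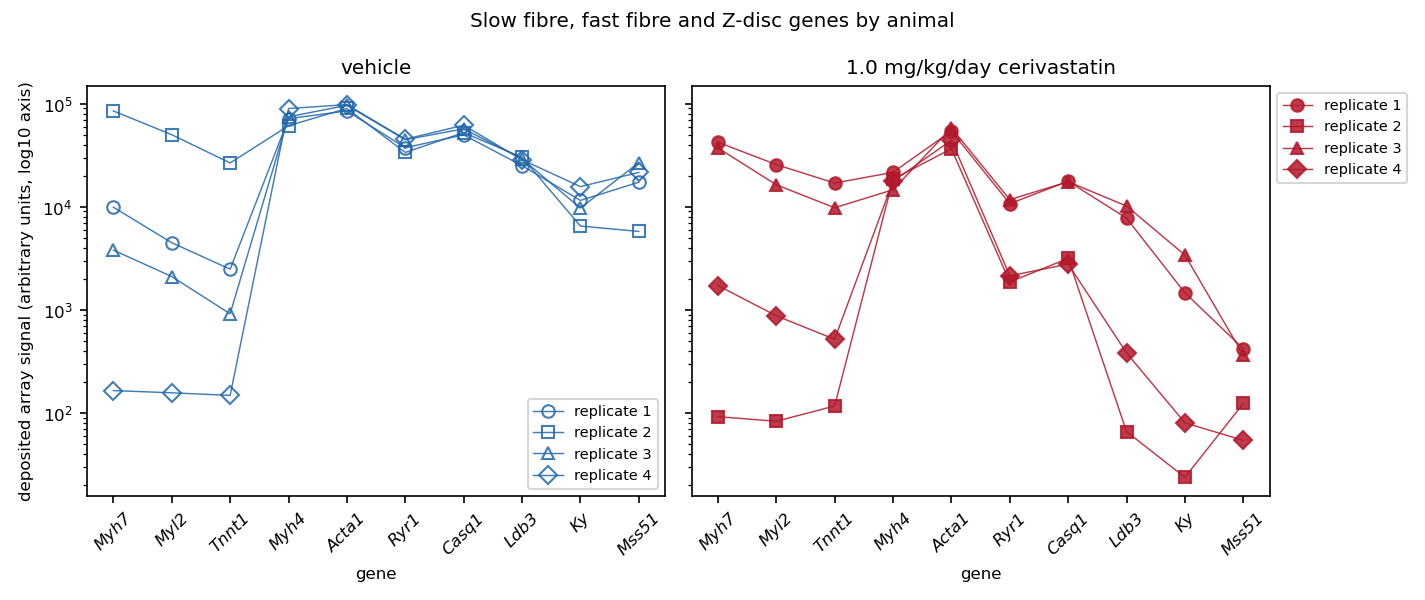
Signal on a log10 axis of 10 muscle genes on the 8 arrays, with lines joining the values of 1 animal. Slow fibre genes (Myh7, Myl2, Tnnt1) run high or low in both groups, Myh4 and Acta1 are tightly grouped, and Ryr1, Casq1, Ldb3, Ky and Mss51 are lower in all 4 treated animals.

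Enzymes of the mevalonate pathway rose, as far as they passed. Of 6 tested enzymes from acetyl units to farnesyl, 4 rose, and of 12 from squalene to cholesterol, 7 rose, with no member falling, against 27.7% of all genes that rose. With arrays centred on their tested median, 3 of the first list rose, and in the second 6 rose and 1 fell. Idi1, which makes the activated form of the 5-carbon building block, read 1139.8, 4229, 1194 and 2314 against 321, 145, 443 and 322, a rise of 2.69 ± 0.39. Sqle, squalene epoxidase, rose by 4.69 ± 0.62 from vehicle signals of 39.8, 7, 40.3 and 62.1, all below the median signal of their arrays. In both genes all treated animals exceeded all vehicle animals, and replicates 2 and 4 were highest. The list of sterol sensors was split. Insig1, which holds SREBP back in the endoplasmic reticulum and is itself an SREBP target, read 5217, 6938, 2112 and 5717 against 823, 489.6, 851 and 509 (difference 2.80 ± 0.46, adjusted p = 4.68e-05). Srebf2, the factor that drives cholesterol genes, rose by 0.89 ± 0.23, and Stard4, a sterol carrier, by 2.08 ± 0.46. Insig2 fell by 1.12 ± 0.19 (-0.58 over both its probe sets) and Srebf1, the factor that drives fatty acid genes, fell by 2.06 ± 0.41. Srebf1 read 699, 614, 812 and 369 against 4654, 1579, 3339 and 1679.6, so that the 2 SREBP genes moved in opposite directions in the same animals.

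Promoter letters were compared for these genes, in windows of 300 bases from 250 before to 50 after the start, from RefSeq on the GRCr8 assembly. The CCAAT box, which binds NF-Y, a partner of SREBP, occurred on either strand in 13 of 16 sterol synthesis promoters and in 37.7% of 27457 promoters. It is not particular to sterol genes, since 27 of 34 mitotic promoters and 7 of 8 MHC class II promoters held it too. The strict SREBP motif TCACNCCAC occurred in 0 of these 16 and in 1.13% of all, and no match says only that these letters are not in the window. Idi1 is shown because it is the enzyme of the early pathway that rose most. Its window lies at chr17:66547475-66547774, minus strand, and capitals mark the 2 CCAAT boxes.
Idi1: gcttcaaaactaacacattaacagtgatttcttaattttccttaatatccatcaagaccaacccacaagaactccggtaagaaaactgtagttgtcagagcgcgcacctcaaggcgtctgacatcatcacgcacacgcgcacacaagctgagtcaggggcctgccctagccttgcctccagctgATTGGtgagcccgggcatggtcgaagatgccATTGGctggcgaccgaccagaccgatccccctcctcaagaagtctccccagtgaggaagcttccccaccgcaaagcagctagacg

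The other branches of the pathway did not move alike. Coenzyme Q, the mobile electron carrier of mitochondria, is made by a dedicated set of enzymes, and 2 of 12 tested members rose and 9 fell (median log2 difference -1.06). Coq2, which joins the isoprenoid tail to the ring, fell by 1.98 ± 0.38, and Pdss2, which builds the tail, fell by 0.99 ± 0.28. Coq10a, a coenzyme Q binding protein, read 4468, 562, 4488 and 613 against 11198, 17004, 11846 and 15130.5 and fell by 3.05 ± 0.62, while its paralogue Coq10b rose by 1.54 ± 0.30. The treated signals of Coq10a lay below every vehicle signal. Without treated replicate 2, 5 members of the list fell, and without treated replicate 4, 4 fell. For dolichol and N-glycosylation, 14 of 28 tested members rose and 2 fell (median log2 difference 0.58), or 9 and 4 with arrays centred on their tested median. Alg8, which adds glucose to the sugar chain, rose by 2.13 ± 0.46, and Srd5a3, the reductase that finishes dolichol, by 1.76 ± 0.33, whereas the kinase Dolk fell by 0.61 ± 0.22. Dolk lost its call without treated replicate 1 or 4 or vehicle replicate 1, 3 or 4, with differences of -0.46 to -0.60. Dhdds, which builds the dolichol chain, differed by 1.25 ± 0.59 and did not pass (adjusted p = 0.0857).

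Among the prenyl transferases and chaperones, 4 of 15 tested members rose and 1 fell (median log2 difference 0.25). With arrays centred on their tested median, 2 rose and 3 fell. The farnesyl and geranylgeranyl transferase subunits were in the group that did not pass: Fnta differed by 0.15 ± 0.13, Fntb differed by -0.52 ± 0.23 and Pggt1b differed by 0.43 ± 0.24. Arhgdib, which is abundant in leukocytes, rose by 2.64 ± 0.45. Pcyox1, which breaks down prenylated cysteine, fell by 1.03 ± 0.31. RhoA, which controls contractile actin fibres, is encoded by Rhoa and read 9161, 12876, 10336 and 13486 against 3242, 5212, 3828 and 3492, a rise of 1.54 ± 0.25 with no overlap. Rhob, an early response GTPase of the same kind, rose by 1.07 ± 0.32, Rac2, the Rac of blood cells, rose by 3.07 ± 0.45 and Nras by 2.51 ± 0.31. Rrad, a GTPase induced in stressed muscle that restrains calcium channels, rose by 3.54 ± 0.77. Cdc42 read 14126, 15487, 14803 and 14847 against 14674, 12097, 14285 and 15038, a difference of 0.08 ± 0.14 that did not pass, with overlapping groups. Rhobtb1 fell by 1.76 ± 0.40, Rhou fell by 1.11 ± 0.44 and Rheb, the activator of mTOR, fell by 0.42 ± 0.16. Rhou lost its call without treated replicate 2 or 4 or vehicle replicate 2, 3 or 4 (-0.76 to -1.18), and Rheb without treated replicate 1, 2 or 4 or vehicle replicate 1, 2 or 4 (-0.34 to -0.43). The difference of Rheb was -0.08 and did not pass with quantile normalization, and was -0.69 with arrays centred on their tested median. With no filter on low signals neither passed. Vav1, an exchange factor of blood cells, rose by 3.52 ± 0.50. Srf, a transcription factor of actin and muscle genes, fell by 0.84 ± 0.18.

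Cytoplasmic cytoskeleton and sarcomere moved apart. Of the cytoplasmic actin and tubulin list, 33 of 43 tested members rose and 6 fell (median log2 difference 1.95). Tubb6, a beta tubulin, read 12854, 14128, 7518 and 14868 against 743, 334, 457 and 237, a rise of 4.84 ± 0.66. Lcp1, the actin bundler of leukocytes, rose by 4.66 ± 0.53, and Tpm4, a cytoplasmic tropomyosin, by 2.89 ± 0.39. The 6 members that fell include Cfl2 (-1.16), a form enriched in muscle, and Pfn2 (-1.48) and Tuba8 (-2.48), counted as muscle forms in the pairs below. Tuba4a (-1.91), counted there as a broad form, fell too. Without treated replicate 2 the difference of Cfl2 was -0.86 and did not pass. No member of the thin and thick filament lists rose. Of the thin filament, 11 of 17 fell, led by the pointed-end cappers Tmod4 (-2.87 ± 0.60) and Tmod1 (-2.58 ± 0.52). Of the thick filament and M-band, 14 of 23 fell. Mylk2, the skeletal myosin light chain kinase, read 1466, 117, 1765 and 219.9 against 10722, 6959, 12852 and 12828 and fell by 4.31 ± 0.69, the largest loss of the list. Myom2 (-3.84 ± 0.70) and Myom1 (-3.36 ± 0.66), the struts of the M-band, and Smyd1 (-2.84 ± 0.65) and Unc45b (-2.31 ± 0.54), which help myosin fold, fell as well. The embryonic myosin Myh3 differed by 1.90 ± 1.05 and did not pass.

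Losses were also wide at the Z-disc, where 22 of 35 members fell and 2 rose, with a median of -2.05. Mss51, a mitochondria-linked protein of fast muscle, had the largest fall of any gene and read 419.9, 124, 364 and 54.1 against 17294, 5759, 26798 and 21516 (difference -6.31 ± 1.14, adjusted p = 0.000118). Ldb3, which ties alpha-actinin to signalling at the Z-disc, read 7743, 65.8, 10158 and 382 against 25046, 30158, 29119 and 28553 and fell by 4.50 ± 1.03. Its vehicle values were almost equal, whereas in treated animals replicates 2 and 4 were far below replicates 1 and 3. Ky, a protease-like Z-disc protein, had the same order, with 1460.1, 23.7, 3398 and 80 against 11514, 6496, 9701 and 15677. Myoz3 (-3.56 ± 0.79) and Myot (-3.22 ± 0.74), both anchored at the Z-disc, fell too. The 2 members that rose, Ankrd1 (2.08 ± 0.79) and Fhl2 (1.78 ± 0.56), are proteins of the stretch and stress response. Ankrd1 did not pass without treated replicate 1 or 3 or vehicle replicate 2 or 4 (1.37 to 2.04), with array weights (1.44) or with arrays centred on their tested median (1.81), nor Fhl2 without vehicle replicate 3 (1.32). The small heat shock partners Cryab (-0.29), Hspb1 (-0.21) and Bag3 (-0.58) did not pass.

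A MEF2 site, the binding letters of the MEF2 family of muscle factors, occurred in 8 of 29 Z-disc promoters. The share was 2.74% in genes that fell, 1.03% in those that rose, 1.61% in all tested genes and 3.37% in all promoters. The matches in the Z-disc list were not limited to genes that fell, since Fhl2, which rose, and Xirp1 (-0.10 ± 0.48), which did not pass, hold them too. Myoz1, a fast fibre partner of alpha-actinin, is shown as a member that fell in all 4 animals, with 24174, 6959.6, 25928 and 5278 against 56424, 63225, 63940.4 and 65057 (difference -2.33 ± 0.45). Its window lies at chr15:3693363-3693662, plus strand, and capitals mark the site.
Myoz1: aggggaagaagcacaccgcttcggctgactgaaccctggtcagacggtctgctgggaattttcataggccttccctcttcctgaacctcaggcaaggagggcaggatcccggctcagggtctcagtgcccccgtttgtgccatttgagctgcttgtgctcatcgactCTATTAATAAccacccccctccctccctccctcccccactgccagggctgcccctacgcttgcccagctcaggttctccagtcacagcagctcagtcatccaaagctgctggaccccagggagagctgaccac

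Most genes of excitation and calcium release fell. In the triad list 1 of 25 tested members rose and 21 fell (median log2 difference -2.57). Ryr1, the calcium release channel, read 10699, 1859, 11726 and 2139 against 37372, 33646, 44688 and 45212, a difference of -3.07 ± 0.53. Cacna1s, its voltage sensor, fell by 3.04 ± 0.63, and Stac3, the adaptor between them, fell by 3.35 ± 0.74. Jph1, which holds the membranes of the triad together, read 2826, 344, 1889 and 418 against 11978, 6235, 12335 and 11180 and fell by 3.40 ± 0.68. The groups did not overlap for either gene, and treated replicates 1 and 3 stood between the others and the vehicle animals. The member that rose, Fkbp1a (0.57 ± 0.17), is a small partner of calcium channels that many cell types make, and its difference was 0.30 and did not pass with arrays centred on their tested median. Among calcium pumps and buffers, 3 of 23 tested members rose and 11 fell (median log2 difference -0.93). Pvalb, the soluble calcium buffer of fast fibres, read 7580.1, 3144, 3023 and 1279 against 71066, 39149, 65846 and 84004 and fell by 4.33 ± 0.88. Mrln, a small inhibitor of the calcium pump, fell by 3.49 ± 0.62, and Camk2a, a calcium-dependent kinase, fell by 3.10 ± 0.59. Sln, another pump inhibitor, differed by 2.17 ± 1.17 and did not pass.

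Channel genes of the muscle surface mostly fell, while some channels known from other cells rose. In the ion channel list, 5 of 30 tested members rose and 15 fell (median log2 difference -1.09). Aqp4, the water channel of fast fibres, read 1650.3, 3.1, 2113 and 79 against 5734, 11238, 4064 and 2317 and fell by 4.23 ± 1.28. In Aqp4 the groups did not overlap, but treated replicate 3 came close to the lowest vehicle animal. Without treated replicate 2 the difference was -2.86 and did not pass. Kcnj11, the pore of the ATP-sensitive potassium channel, fell by 3.20 ± 0.56, and Clcn1, the chloride channel that steadies the membrane, fell by 1.76 ± 0.43. Kcnn4, a calcium-activated potassium channel of activated macrophages and lymphocytes, read 1557, 1410, 1501 and 1972 against 42.5, 13.4, 9.6 and 26.6, a rise of 5.60 ± 0.76. The treated animals were close together, and the vehicle signals were so low that the offset of 12.4 makes the log2 difference smaller than the ratio of signals. The mechanosensor Piezo1 rose by 2.73 ± 0.43. In the sodium pump list the beta subunit Atp1b2 read 1484, 638, 1728 and 652 against 13946, 7882, 17145 and 19067 and fell by 3.74 ± 0.58. Fxyd1, a muscle regulator of the pump, fell by 2.80 ± 0.48, whereas Fxyd5 rose by 3.52 ± 0.58.

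The same contrast appeared within families whose members divide between muscle and other cells. These 50 pairs were drawn up after values were seen, so their counts are a description only. In 36 of 50 pairs the muscle form fell and the broadly expressed form rose. Of 47 muscle forms 43 fell and none rose, and of 50 broad forms 39 rose and 3 fell. Of the muscle forms, Tpm1 and Eif4a2 each had another probe set that passed in the opposite direction. Slc2a4, the insulin-responsive glucose transporter, read 3471, 155, 4643 and 184 against 14035, 15437, 11394 and 13899 and fell by 4.00 ± 0.77. Slc2a1, the glucose transporter of most cells, read 970.2, 1092, 1017 and 808 against 36, 173, 263 and 35.2 and rose by 3.23 ± 0.55. The order of the transporters by direction was thus opposite in the same 4 animals. Creatine kinase gave -1.05 ± 0.23 for muscle Ckm (-0.17, not passing, with quantile normalization) and 3.34 ± 0.58 for Ckb, and the ADP/ATP carrier -1.60 ± 0.37 for Slc25a4 (-0.89 with quantile normalization) and 2.83 ± 0.36 for Slc25a5. Elongation factor 1 alpha gave -2.40 ± 0.52 for Eef1a2, which replaces the common form in mature muscle (-1.46 over both its probe sets), and 1.37 ± 0.28 for Eef1a1. The ribosomal protein Rpl3l, found in striated muscle, read 7056, 744, 7492 and 599 against 25426, 22370.1, 19864 and 22085 (-3.33 ± 0.74), and its common counterpart Rpl3 rose by 2.27 ± 0.40. Exceptions were the muscle forms Hk2 (0.40 ± 0.40), Dysf (0.14 ± 0.28), Fabp3 (-1.95 ± 0.89) and Acacb (-1.71 ± 0.76), which did not pass, and the broad forms Pfkfb3, Tuba4a and Mapk14, which fell.

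**Figure D3:**
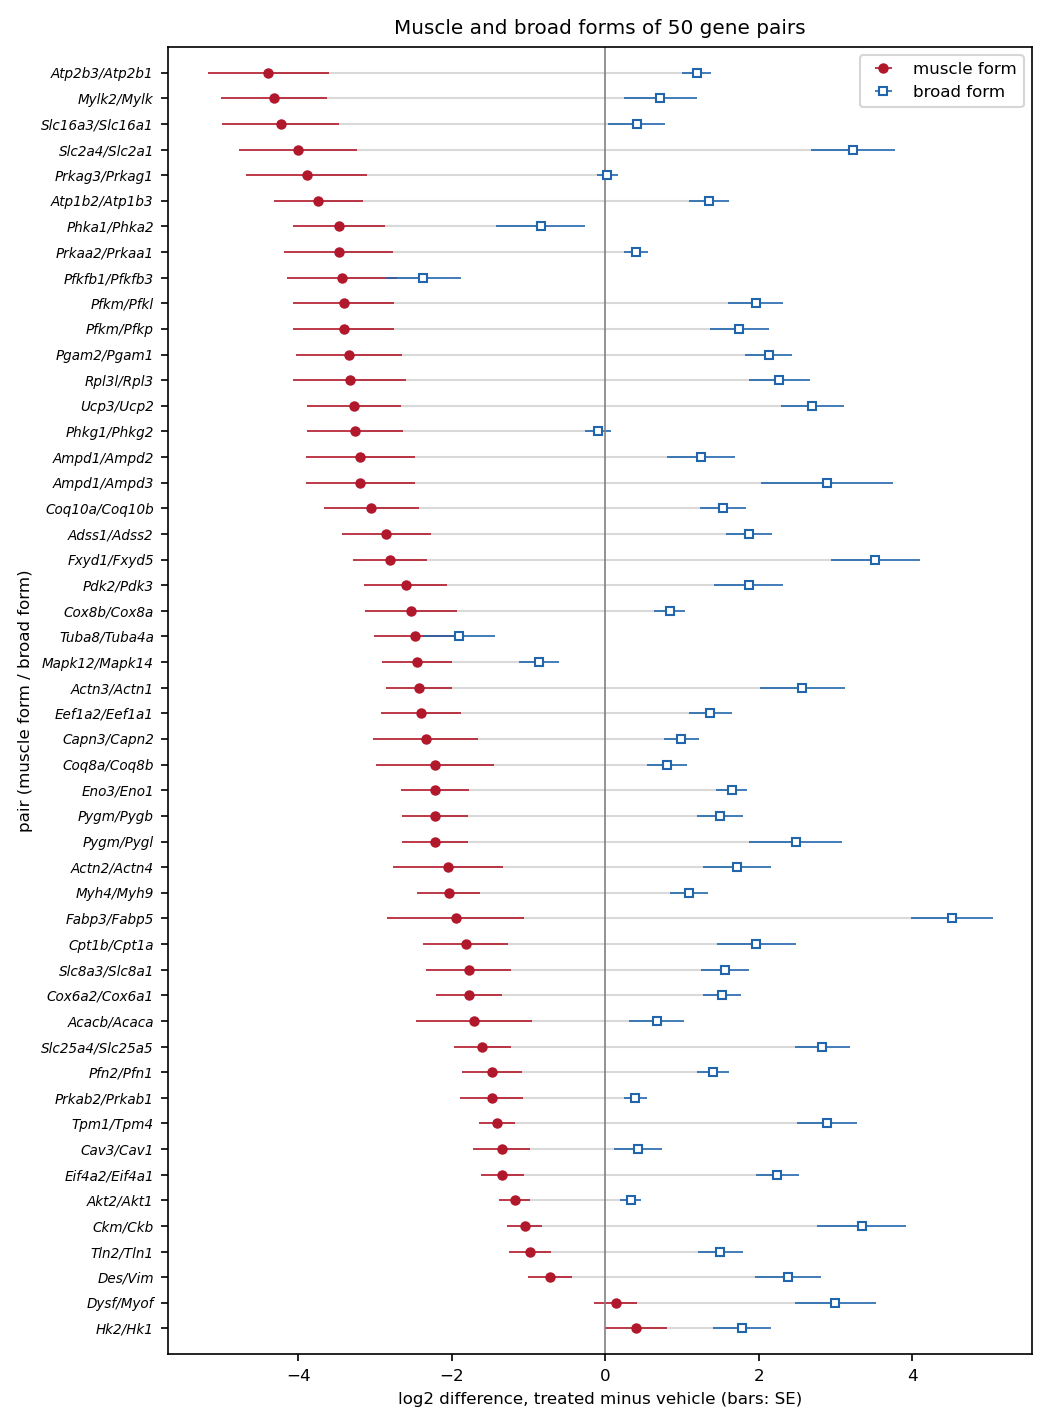
Log2 difference, treated minus vehicle, of the muscle form (filled circles) and the broad form (open squares) in 50 gene pairs, with SE bars. In 36 pairs the muscle form passed the threshold below 0 and the broad form above 0.

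At the membrane, the dystrophin and costamere list was balanced, with 9 members higher and 9 lower of 27, or 8 and 11 with arrays centred on their tested median. The sarcoglycans Sgca (-2.29 ± 0.45) and Sgcb (-2.28 ± 0.48) and the filament protein Synm (-2.39 ± 0.40) fell, while Tln1 (1.50 ± 0.29) and Dtnb (3.48 ± 0.71) rose. For membrane repair and caveolae, 6 of 17 tested members rose and 5 fell (median log2 difference 0.20), and with arrays centred on their tested median 6 rose and 6 fell. Trim72, which seals torn muscle membranes, fell by 1.56 ± 0.50 and Cav3, the muscle caveolin, fell by 1.35 ± 0.37, whereas Myof, a ferlin of fusing myoblasts, rose by 3.00 ± 0.53. Trim72 did not pass without treated replicate 2 (-1.20) or 4 (-1.10). At the neuromuscular junction, 2 of 16 tested members rose and 4 fell (median log2 difference 0.02). With quantile normalization 7 fell, as they did with arrays centred on their tested median (median -0.25). The adult receptor subunit Chrne fell by 2.34 ± 0.82, and Chrnd rose by 2.14 ± 0.72. Chrnd lost its call without vehicle replicate 4 (1.75), and Chrne without treated replicate 2 or 4 or vehicle replicate 1 or 3 (-1.76 to -2.23). Chrna1 (0.43 ± 0.66) and Ncam1 (0.98 ± 0.47), which rise on denervation, did not pass.

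Regulators of muscle identity fell more than they rose. Of the muscle transcription factors, 1 of 30 tested members rose and 16 fell (median log2 difference -0.76). Sox6, which represses slow genes in fast fibres, fell by 3.04 ± 0.43, Mef2c fell by 2.38 ± 0.44, and Vgll2, a cofactor of TEAD factors in muscle, fell by 2.40 ± 0.65. Myod1 read 1011, 1574, 1832 and 2617 against 2012, 1210.5, 2455 and 2727 and Myog 4169.9, 1626, 3986 and 2447 against 1636, 2400.1, 1434 and 1127. Both are factors of myoblast commitment and fusion, their groups overlapped, and their differences of -0.27 ± 0.51 and 0.84 ± 0.48 did not pass. In the regeneration list, 10 of 28 tested members rose and 4 fell (median log2 difference 1.04), with rises of Runx1 (2.07 ± 0.40), Nes (1.70 ± 0.39) and Mymk, the myoblast fusion protein (1.72 ± 0.50). Igf2, a fetal growth factor, fell by 1.42 ± 0.45, but did not pass without vehicle replicate 3 (-1.18).

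Genes of metabolic receptors and sensors mostly fell where they passed. Of the nuclear receptors and coactivators, 1 of 31 tested members rose and 19 fell (median log2 difference -0.89). Ppargc1a, the coactivator of mitochondrial genes, read 381, 81.9, 560.3 and 76.2 against 937, 909.5, 706 and 788 and fell by 2.02 ± 0.55. Rxrg fell by 3.07 ± 0.52, and Nr4a1, which activity induces, fell by 2.25 ± 0.39, whereas its relative Nr4a3 differed by -0.16 ± 0.58 and did not pass. Pprc1 was the member that rose (1.11 ± 0.25). In the AMPK list, 3 of 14 tested members rose and 5 fell (median log2 difference 0.32), but 1 rose in each of the 3 other scalings, with medians of 0.22 with arrays centred on their median, 0.16 with quantile normalization and 0.05 with arrays centred on their tested median. The muscle subunits Prkag3 (-3.89 ± 0.79) and Prkaa2 (-3.47 ± 0.71) fell. Of insulin and mTOR signalling, 2 of 35 tested members rose and 17 fell (median log2 difference -0.42). Ddit4l, an inhibitor of mTOR in muscle, fell by 3.53 ± 0.70, and the receptor substrate Irs1 fell by 2.25 ± 0.39. Foxo1 (-0.69 ± 0.33) and Foxo3 (0.10 ± 0.17), which drive muscle wasting, did not pass, nor did their ligases Fbxo32 (-0.84 ± 0.52) and Trim63 (-1.10 ± 0.56). For clock genes, 1 of 19 tested members rose and 10 fell (median log2 difference -0.66), with Hlf at -3.57 ± 0.57 and Bmal1 at -0.99 ± 0.26, against a rise of Per2 by 0.75 ± 0.23, which was 0.47 and did not pass with arrays centred on their tested median. Sampling hour is not given in the labels.

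In fuel supply, 4 of 28 tested members rose and 13 fell (median log2 difference -0.89). The lactate exporter Slc16a3 read 893, 408, 2537 and 378 against 16300.3, 9491, 14832 and 20201, a difference of -4.23 ± 0.76. Car14, a carbonic anhydrase, fell by 4.16 ± 0.74, and Gpd1, which shuttles reducing power between cytosol and mitochondria, read 3000, 489, 3501 and 566 against 27672, 17924, 29330 and 34256 (-4.33 ± 0.71). Of phosphotransfer and purine genes, 11 of 20 tested members rose and 7 fell (median log2 difference 1.03). Ampd1, which drains AMP in working muscle, read 14724, 943, 11528 and 1064 against 36292, 21045, 40100.1 and 39954 (-3.19 ± 0.71). Mitochondrial ribosomal proteins shifted by small amounts in a common direction, with 44 of 76 lower, 1 higher and a median of -0.62. Without treated replicate 2 or without treated replicate 4, 29 were lower. Of import and dynamics genes, 3 of 49 tested members rose and 27 fell (median log2 difference -0.63). The fusion genes Mfn2 (-1.49 ± 0.28) and Mfn1 (-1.26 ± 0.28) fell, and Opa1 (-0.22 ± 0.23) did not pass.

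Signals that recruit leukocytes were among the largest rises. Spp1, osteopontin, a secreted adhesion protein of macrophages and injured muscle, read 10524, 19592, 35518 and 28753 against 129, 187, 134 and 141, a rise of 7.08 ± 0.84 (adjusted p = 5.05e-06). Ccl2, the main attractant of monocytes, read 12887, 15787, 11769.6 and 18252 against 163, 16.6, 198 and 125, a rise of 7.04 ± 0.93. For both genes the lowest treated signal was many times the highest vehicle signal. Ccl7, a related ligand, rose by 6.75 ± 0.87. Of 31 chemokine ligands on the array, 24 were tested, of which 14 rose and 1 fell (median log2 difference 1.91). Ccl27 was the member that fell (-1.11 ± 0.34, or -0.79 and not passing without treated replicate 3). Ccr1, the receptor for several of these ligands, was the chemokine receptor that rose (4.71 ± 0.78), of 9 tested and 16 on the array. Of 40 cytokine ligands on the array, Spp1 included, 21 were tested. Of these, 7 rose and 2 fell (median log2 difference 0.36), or 7 and 4 with arrays centred on their tested median. Il1b read 344, 576, 179.9 and 551 against 7.6, 65.5, 83.6 and 16.7 and rose by 3.09 ± 0.60, Il18 rose by 3.83 ± 0.63 and Il33, released from damaged stroma, by 2.72 ± 0.47. Il15, made by muscle fibres, fell by 1.81 ± 0.42, and Ltb, a lymphotoxin chain, fell by 3.22 ± 0.78. Of the receptors, 22 of 33 tested members rose and 1 fell (median log2 difference 1.75), led by Il4r (3.84 ± 0.58) and Il17ra (3.63 ± 0.59). Lifr was the receptor that fell (-1.44 ± 0.38).

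Of 39 pattern recognition and phagocytic receptors on the array, 35 were tested and 33 of these rose, with a median of 3.46. Fcgr2b, the inhibitory receptor for antibody, read 5956, 12369, 3726 and 11853 against 117, 65.9, 84.6 and 76.5, a rise of 6.29 ± 0.67. Clec4a3 and Clec10a, lectins of myeloid cells, rose by 5.43 ± 0.60 and 5.32 ± 0.68. Mertk, which takes up dying cells, rose by 3.73 ± 0.77 and Tlr4, the endotoxin receptor, by 2.50 ± 0.38. Cd36 (0.46 ± 0.48), which muscle and fat also express, and Traf6 (-0.22 ± 0.18) did not pass. All 16 tested macrophage markers rose, with a median of 4.47. Arg1, arginase of repair macrophages, read 2269, 6498, 3878 and 6150.5 against 171, 160.1, 89.9 and 113 (4.94 ± 0.65), whereas Nos2, the nitric oxide synthase of inflammatory macrophages, read 130.4, 119, 56 and 153 against 85.1, 225, 188 and 56.8 and did not pass (-0.15 ± 0.63). In the oxidant list, 6 of 11 tested members rose and none fell (median log2 difference 2.70), with the oxidase subunits Cybb (4.38 ± 0.53) and Cyba (3.45 ± 0.41).

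Markers of other leukocytes gave smaller counts. Of 14 listed neutrophil markers, 9 are on the array and 3 were tested. These 3 rose, namely S100a9 (5.34 ± 0.89), S100a8 (4.27 ± 0.97) and Csf3r (2.50 ± 0.56), which monocytes share. A low marker can pass the filter on mean level through the treated arrays, so counts here hold for tested members only. Of 20 T and NK cell markers on the array, 8 were tested. Cd8a (2.35 ± 0.71), Cd4 (1.84 ± 0.46) and Lck (1.35 ± 0.25) rose, while Cd3g, which defines T cells, differed by 0.77 ± 0.51 and did not pass. Without treated replicate 2 the difference of Cd8a was 1.76 and did not pass, nor did it pass in a limma fit of these 2 groups alone (adjusted p = 0.0592). Of 5 B cell markers on the array, 3 were tested. Blnk rose (5.18 ± 0.71), a gene that macrophages also use, and Cd22 (-0.43 ± 0.24) and Jchain (-0.17 ± 0.44) did not pass. Of 15 fibroblast markers, 11 rose and 1 fell. Endothelium gave 3 of 14 higher, smooth muscle 2 higher and 4 lower of 14, and adipocytes 3 lower of 13. Schwann cells gave 3 of 8 higher, mast cells 3 of 7 and satellite cells 3 higher and 1 lower of 10. With arrays centred on their tested median, no mast cell marker rose, 1 smooth muscle marker rose and 5 fell, and 3 satellite cell markers rose and 4 fell. No erythroid marker of 5 passed. The part of these cells in the gene lists above was not tested.

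Genes that present antigen rose where they passed. In the class I list, 16 of 19 tested members rose and none fell (median log2 difference 1.23), and the median shift was 1.23, 1.32, 1.26 and 1.28 in treated replicates 1 to 4. Tap1, which pumps peptides into the endoplasmic reticulum, read 455, 576, 787 and 669 against 89.7, 52, 26.4 and 39.5 and rose by 3.37 ± 0.57. Psmb8, a subunit of the immunoproteasome, read 1242, 2840.3, 1485 and 3001 against 214, 280.2, 408 and 271 and rose by 2.75 ± 0.43. The class II list shifted by 0.86, 1.30, 1.72 and 1.29 in treated replicates 1 to 4. Of its genes, 6 of 10 tested members rose and none fell (median log2 difference 1.12), with Ifi30 (3.61 ± 0.38) and RT1-DMa (2.57 ± 0.41) among them, while Cd74 (0.99 ± 0.41) and the master regulator Ciita (-0.34 ± 0.43) did not pass. The interferon response element, written as GAAA, any 2 bases and GAAA again, occurred on either strand in 8 of 16 class I promoters and in 3.77% of all. Tap1 and Psmb8 are shown as the transporter and proteasome members that hold it, with the element in capitals. Their windows lie on the same chromosome, at chr20:4668494-4668793, minus strand and chr20:4656982-4657281, minus strand.
Tap1: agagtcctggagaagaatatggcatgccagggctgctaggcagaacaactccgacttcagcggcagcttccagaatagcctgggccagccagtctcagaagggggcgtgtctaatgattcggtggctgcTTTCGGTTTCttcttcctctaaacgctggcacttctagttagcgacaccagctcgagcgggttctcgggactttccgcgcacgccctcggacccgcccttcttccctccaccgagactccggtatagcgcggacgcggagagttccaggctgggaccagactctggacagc
Psmb8: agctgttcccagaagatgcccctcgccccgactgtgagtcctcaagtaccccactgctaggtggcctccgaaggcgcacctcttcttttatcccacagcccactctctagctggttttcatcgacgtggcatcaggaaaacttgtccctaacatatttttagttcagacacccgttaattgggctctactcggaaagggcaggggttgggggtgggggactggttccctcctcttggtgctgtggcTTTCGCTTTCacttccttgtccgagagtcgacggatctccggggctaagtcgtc

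Signalling and lipid mediator lists rose where they passed, with few exceptions. Of the JAK-STAT list, 12 of 20 tested members rose and 1 fell (median log2 difference 1.00), led by the phosphatase Ptpn6 (4.33 ± 0.55) and the feedback inhibitor Socs3 (2.48 ± 0.69). Of leukocyte integrins and adhesion genes, 14 of 21 tested members rose and none fell (median log2 difference 2.02). Itgb2, the common chain of leukocyte integrins, rose by 4.33 ± 0.51 and Vcam1, an adhesion protein of endothelium that satellite cells also carry, by 3.66 ± 0.47. Of the prostanoid and leukotriene list, 12 of 18 tested members rose and 1 fell (median log2 difference 1.89). Ptgs1, cyclooxygenase 1, rose by 3.02 ± 0.62, and Ptges2, a prostaglandin E synthase, fell by 1.62 ± 0.31. In macrophage lipid handling, 12 of 20 tested members rose and 2 fell (median log2 difference 1.56). Gpnmb, a glycoprotein of lipid-laden macrophages, read 26376, 27502, 43413 and 34386 against 594, 349, 765 and 546, a rise of 5.86 ± 0.77. Ch25h, which makes 25-hydroxycholesterol, rose by 4.56 ± 0.73 and Soat1, which stores cholesterol as esters, by 4.27 ± 0.60. Vldlr (-1.56 ± 0.32) and Cyp27a1 (-1.08 ± 0.26) fell.

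Proteolysis and repair outside the cell rose broadly. Among metalloproteinases and their inhibitors, 16 of 23 tested members rose and 1 fell (median log2 difference 1.42), or 13 and 4 with arrays centred on their tested median. Timp1, a secreted inhibitor, read 20460, 29563, 11777 and 25715 against 446, 324, 534 and 373, a rise of 5.61 ± 0.74, while Timp3 (-0.79 ± 0.44) and Timp4 (-0.70 ± 0.31) did not pass. Mmp12, the macrophage elastase, rose by 4.25 ± 0.85 and Mmp19 by 3.38 ± 0.77, and Mmp15 was the member that fell (-0.94 ± 0.26). Of plasminogen, coagulation and serpin genes, 15 of 21 tested members rose and none fell (median log2 difference 1.66), with Serpina3n at 4.92 ± 1.02 and the urokinase receptor Plaur at 4.00 ± 0.69. Of annexins, galectins and S100 proteins, 20 of 24 tested members rose and 1 fell (median log2 difference 2.16), or 19 and 3 by the same centring. Lgals3, a galectin of macrophages, rose by 4.21 ± 0.63, and S100a1, the muscle S100 that supports calcium release, fell by 1.69 ± 0.37. Among calpains and caspases, 14 of 21 tested members rose and 2 fell (median log2 difference 0.99), or 9 and 2 by that centring. Capn3, the muscle calpain, fell by 2.34 ± 0.68 and Capn6, an embryonic form without protease activity, rose by 3.49 ± 0.65.

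Growth signals were mixed. Of the IGF and TGF-beta list, 17 of 47 tested members rose and 8 fell (median log2 difference 0.39). The counts were 13 and 10, with a median of 0.12, when arrays were centred on their tested median. Tgfb1, the growth factor that drives fibrosis, read 1428, 2365, 2481 and 3370.1 against 172, 310, 282 and 132 (3.37 ± 0.51). Igf1, which promotes muscle growth, read 5438, 11511, 5189.7 and 12126 against 873, 1938, 1716 and 1399 (2.47 ± 0.60). Mstn, myostatin, which restrains it, read 31.4, 4.6, 6.2 and 4.4 against 607, 157, 544 and 439 (-4.20 ± 0.84), with 3 treated signals below the offset of 12.4. The Igf1 and Mstn groups did not overlap. Acvr2b, a receptor for myostatin, fell by 1.37 ± 0.35. Fst, which binds and blocks myostatin, differed by 1.07 ± 0.45 and did not pass. Of other growth factors and receptors, 12 of 44 tested members rose and 3 fell (median log2 difference 0.20), a median that was -0.07 with arrays centred on their tested median. Rises included Ccn5 (2.99 ± 0.75), Adm (2.89 ± 0.61) and the fibroblast receptor Pdgfra (2.48 ± 0.47), while Vegfa (-0.71 ± 0.36) did not pass. Of secreted factors known as myokines, 7 of 17 rose and 2 fell, and with arrays centred on their tested median 6 rose and 6 fell. Chi3l1 (4.68 ± 0.67) and Metrnl (3.38 ± 0.45) led the rises after Ccl2.

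Genes of protein export rose, and stress response genes were mixed. In the secretory and collagen processing list, 39 of 52 tested members rose and 2 fell (median log2 difference 0.82), or 31 and 5 with arrays centred on their tested median. Ssr1 (2.84 ± 0.42) and Sec61a1 (2.69 ± 0.39), which take proteins into the endoplasmic reticulum, and Lox (2.60 ± 0.73), which links collagen, rose, whereas Sar1b, a coat GTPase, fell by 2.55 ± 0.46. Of the amino acid and integrated stress response list, 14 of 33 tested members rose and 7 fell (median log2 difference 0.56). By the same centring, 10 members of this list rose and 8 fell (median 0.29). Its enzymes and transporters Psat1 (3.32 ± 0.99), Slc1a5 (2.38 ± 0.64) and Asns (1.95 ± 0.52) rose, but the transcription factor Atf4 fell by 0.74 ± 0.23 and Chac1, its target, fell by 2.51 ± 0.68. Ddit3 (0.09 ± 0.25) and Atf3 (0.01 ± 0.54), stress factors downstream of Atf4, did not pass. Nor did Atf4 without treated replicate 3 (-0.56) or with quantile normalization (-0.37). Of ribosome biogenesis genes, 16 of 43 tested members rose and 2 fell (median log2 difference 0.28), led by fibrillarin, Fbl (1.70 ± 0.24). When arrays were centred on their tested median, 11 rose and 2 fell, with a median of 0.01. Translation factors (12 higher, 7 lower of 41) and tRNA synthetases (5 higher, 4 lower of 22) gave counts that moved with scaling. They were 7 higher and 7 lower, and 3 higher and 4 lower, with arrays centred on their median, and 6 higher and 12 lower, and 2 higher and 8 lower, with arrays centred on their tested median. Without treated replicate 2 or 4, 3 synthetases rose.

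Genes of dividing cells rose. Of 53 listed mitotic genes, 47 are on the array and 38 were tested. All 38 tested mitotic genes rose (33 to 36 under the other scalings), with a median of 2.70, and so did 32 of 41 replication genes (median 1.63), with none lower, or 2 lower with quantile normalization or with arrays centred on their tested median. Mki67, the general mark of cycling cells, read 1416, 3586, 1257 and 3569.6 against 116, 10.2, 57.4 and 43.9 (5.24 ± 0.81). Cdk1, the kinase that starts mitosis, read 863, 2598, 987 and 2599 against 99, 29, 85 and 105 (4.20 ± 0.77). Mcm3, part of the helicase that opens DNA for copying, read 779, 1400, 599 and 1171 against 24.2, 170.2, 5 and 85.2 (4.03 ± 0.69). In all 3 genes each treated signal exceeded each vehicle signal. Cdkn1a, which arrests the cycle, differed by 0.84 ± 0.42 and did not pass. The filter on mean level keeps low genes that the drug raised, so the counts hold for tested members. The median shift of the mitotic list was 2.04, 3.30, 2.20 and 3.25 in treated replicates 1 to 4.

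The cell cycle homology region TTTGAA, on either strand, lay in 24 of 34 mitotic promoters, in 4 of 38 replication promoters and in 18.1% of all. The E2F motif TTTNNCGC lay in 16 of 38 replication promoters, in 4 of 34 mitotic promoters and in 5.19% of all. Over every gene that rose, the shares were 12.6% and 9.01%, near the 11.4% and 8.23% of all tested genes. Cdk1 and Plk1, a mitotic kinase (2.59 ± 0.60), show the first motif, and Mcm3 the second, with matches in capitals. The windows lie at chr20:19265043-19265342, plus strand, at chr1:186147408-186147707, plus strand and at chr9:30733697-30733996, minus strand.
Cdk1: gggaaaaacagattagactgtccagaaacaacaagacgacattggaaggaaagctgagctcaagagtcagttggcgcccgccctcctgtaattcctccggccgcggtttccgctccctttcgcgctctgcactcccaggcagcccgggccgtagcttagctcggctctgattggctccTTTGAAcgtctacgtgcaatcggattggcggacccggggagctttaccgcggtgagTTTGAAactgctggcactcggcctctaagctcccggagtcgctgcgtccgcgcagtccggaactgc
Plk1: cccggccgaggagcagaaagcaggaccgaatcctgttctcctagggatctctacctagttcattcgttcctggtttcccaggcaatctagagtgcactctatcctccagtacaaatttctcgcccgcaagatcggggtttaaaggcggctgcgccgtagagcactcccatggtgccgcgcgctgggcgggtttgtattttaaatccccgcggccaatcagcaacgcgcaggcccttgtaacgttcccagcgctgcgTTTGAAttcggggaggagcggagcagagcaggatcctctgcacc
Mcm3: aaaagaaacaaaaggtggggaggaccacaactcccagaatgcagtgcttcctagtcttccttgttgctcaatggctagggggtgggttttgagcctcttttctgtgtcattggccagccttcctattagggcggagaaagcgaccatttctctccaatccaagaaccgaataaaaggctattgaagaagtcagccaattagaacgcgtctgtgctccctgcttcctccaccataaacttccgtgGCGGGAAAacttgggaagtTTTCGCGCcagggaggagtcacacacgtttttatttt

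Iron and redox genes moved in both directions. Of the iron and heme list, 9 of 27 tested members rose and 8 fell (median log2 difference 0.21), with 5 lower when treated replicate 4 was left out. The median was -0.06 with quantile normalization and -0.07 with arrays centred on their tested median, where 9 rose and 9 fell. Hmox1, which degrades heme, read 2842, 6033, 2206 and 4492 against 172, 204, 107 and 259 (4.26 ± 0.57), and Cd163, the scavenger of hemoglobin, rose by 4.78 ± 0.66. Heme synthesis by Alas1 (-1.42 ± 0.45) and Fech (-1.38 ± 0.31) fell, as did the transferrin receptor Tfrc (-1.99 ± 0.49). Alas1 did not pass without treated replicate 2 (-1.21). Of selenoproteins and glutathione genes, 15 of 43 tested members rose and 10 fell (median log2 difference 0.31). With arrays centred on their tested median 13 rose and 15 fell, and 4 or 5 fell when treated replicate 2 or 4 was left out. Gss, glutathione synthetase, rose by 2.70 ± 0.53, and the selenoprotein Selenow, abundant in muscle, fell by 1.91 ± 0.44. Nqo1 (0.61 ± 0.34) and Gclm (0.34 ± 0.24), common targets of the antioxidant factor Nrf2, did not pass.

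Several of the largest changes lay outside these lists or are named by size alone. Among the 15 largest rises with groups fully apart were Lbp, the endotoxin-binding protein (5.30 ± 0.97), Aif1, a marker of activated macrophages (5.22 ± 0.57, or 2.45 averaged over its 2 probe sets), and Fyb1, an adaptor of leukocyte adhesion (5.10 ± 0.73). Among the 15 largest falls were Tmem52 (-5.01 ± 0.92) and C8h3orf18 (-4.68 ± 0.77), both of little-known function, Fbp2, the muscle fructose bisphosphatase (-4.63 ± 0.93), and Atp2b3, a calcium pump of the surface membrane (-4.39 ± 0.79). Tmem52 read 1336, 44.4, 1649 and 20.5 against 7632, 7414, 8522 and 9345, and Fbp2 469.8, 21.9, 413 and 58.5 against 5349, 1850.3, 2969 and 6221. In both, replicates 2 and 4 were again the lowest. Transcripts that varied widely among treated animals included some that fell and some that did not pass. Aqp4 and Ldb3, which fell, had SDs of 3.42 and 3.41 on the log2 scale among treated arrays. Myl3, a slow myosin light chain, had an SD of 3.34 among treated and 2.74 among vehicle arrays, Myoz2 of 3.60 and 3.16, and Chad, a cartilage and tendon matrix protein, of 3.39 and 2.94. These 3 did not pass, with differences of -0.54 ± 1.38, -0.29 ± 1.58 and -0.66 ± 1.64.

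**Figure D4:**
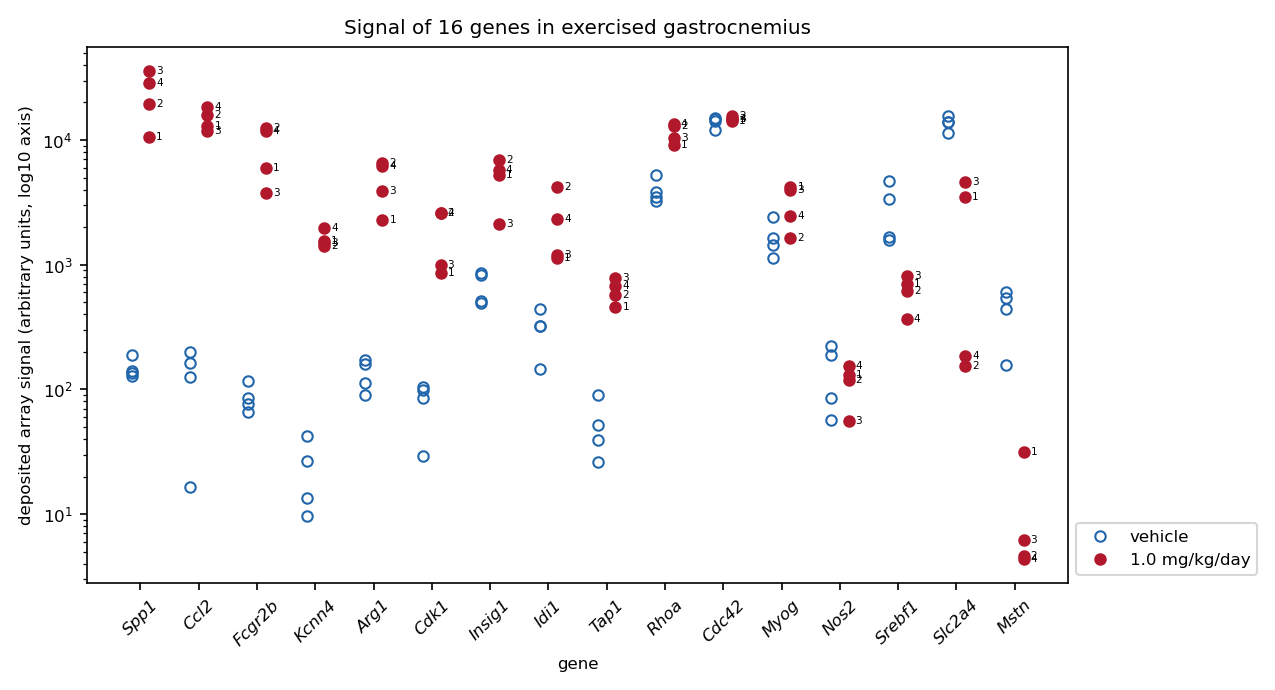
Signal on a log10 axis of 16 genes on each array, with treated animals as filled points, vehicle animals as open points and replicate numbers beside the treated points. Groups are fully apart for all except Cdc42, Myog and Nos2.

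The same dose was compared with vehicle in the soleus of exercised rats, with 4 arrays in each group, on all 45 arrays. In soleus, no gene passed (limma, adjusted), and 345 of 11684 had an unadjusted p under 0.05. The 16 macrophage markers differed by 0.45 to 1.32 there, with a median of 0.80. Mitotic genes ranged from -0.64 to 1.25 and triad genes from -0.66 to 0.24. Whether the labels' animals gave both muscles is not stated, and the labels give a smaller RNA input for soleus. The difference of the 2 responses was tested as an interaction. It was higher in gastrocnemius for 1960 genes (16.8%) and lower for 1460 (12.5%). Spp1 differed by 7.08 ± 0.84 in gastrocnemius and 0.84 ± 0.74 in soleus, an interaction of 6.24 ± 1.05 (adjusted p = 0.000222). Ccl2 gave 0.50 ± 0.86 in soleus and 6.54 ± 1.21 for the interaction, the largest positive one. Kcnn4 gave -0.06 ± 0.70 in soleus and an interaction of 5.65 ± 0.99. Mss51 gave 0.95 ± 1.46 in soleus and an interaction of -7.26 ± 2.06, the largest in the negative direction. Of the triad list, 19 of 25 passed with a negative interaction, and of the macrophage markers 16 of 16 a positive one. Mitotic genes gave 28 of 38 and the cytoplasmic cytoskeleton 31 of 43. Mitochondrial ribosomal proteins, by contrast, gave 7 of 76 with a negative interaction, a share below that of all genes. Myh4 differed by -1.81 ± 1.51 in soleus, an interaction of -0.23 ± 2.13 that did not pass, and no slow fibre marker had an interaction that passed. Idi1 (2.31 ± 0.53) and Insig1 (2.46 ± 0.61) did, so these sterol genes rose more in gastrocnemius than in soleus.

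**Figure D5:**
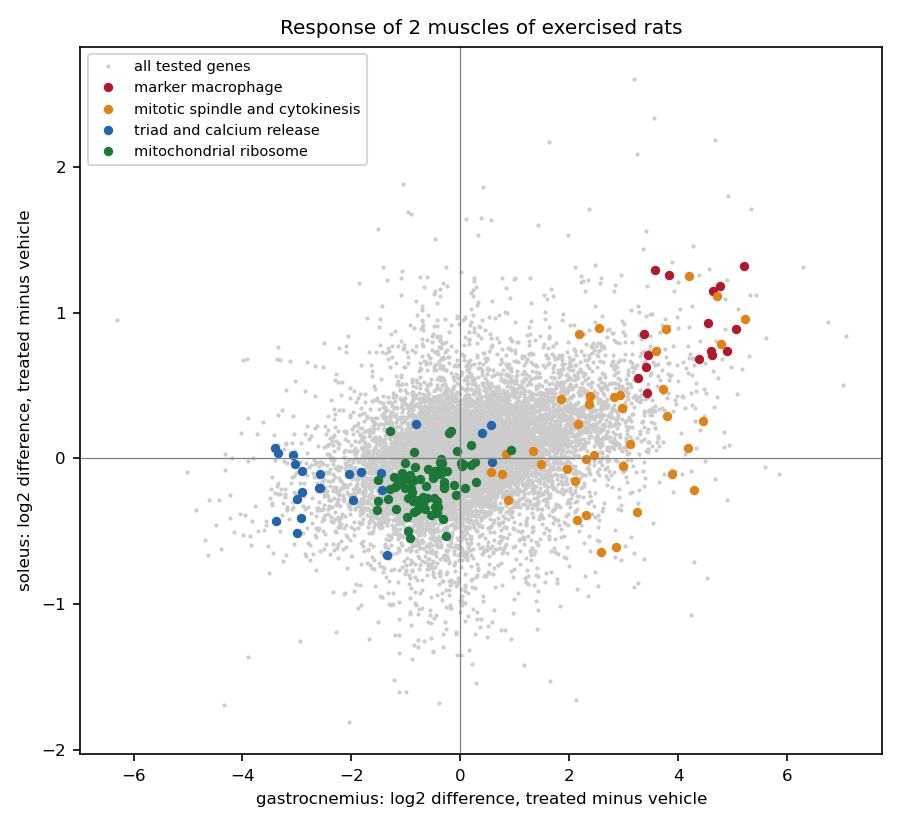
Log2 difference, treated minus vehicle, in exercised gastrocnemius (horizontal) and exercised soleus (vertical) for 11684 genes in grey, with 4 gene lists in colour. Macrophage and mitotic genes spread to the right and triad genes to the left, while in soleus the members of these lists lie between -0.66 and 1.32.

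In rats that did not run, 3 arrays at the same dose were set against 4 vehicle arrays. No probe set passed the test of the difference between exercised and unexercised responses, and 1375 of 21729 had an unadjusted p under 0.05, so none of the changes above was shown to depend on exercise. With array weights estimated by limma, 744 probe sets were higher and 1230 lower in this test. Mean log2 levels at the lower doses in exercised rats are given for Spp1, Mss51, Ldb3 and Insig1, as a description with no test. For Mss51, Ldb3 and Insig1 they were near those of vehicle, whereas Spp1 was lower than vehicle at 0.5 mg/kg/day. Spp1 stood at 7.31 for vehicle, 6.99 at 0.1, 6.27 at 0.5 and 14.39 at 1.0 mg/kg/day. Mss51 stood at 13.92, 14.06, 13.63 and 7.61, Ldb3 at 14.78, 14.81, 14.89 and 10.29, and Insig1 at 9.36, 9.61, 9.42 and 12.16. Groups held 4 arrays each, or 3 at 0.5 mg/kg/day.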

How the data were processed

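Total RNA of gastrocnemius and soleus was hybridised to 45 rat arrays of 31099 probe sets, 57 of them controls. The values are linear signal intensity per probe set, deposited in the series matrix. The submitters' processing notes name MAS5. Their trimmed means of 600.2 to 600.3 show a common scale. The sources used here give no further settings. Groups were taken from the labels, which call the arrays biological replicates.

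Each intensity was turned into log2(value + 12.4), the offset being the 10th percentile of all values, which makes the change of low genes smaller than their ratio. The 21729 probe sets whose mean over 45 arrays reached the 30th percentile (6.03) were kept, of which 16235 have 1 symbol in the platform annotation (of 31042, 20826 have 1, 436 several and 9780 none). A gene is its tested probe set of highest mean, 11684 in all. Group means were fitted with limma 3.58.1 in R 4.3.3 (lmFit, contrasts.fit, eBayes with a trend) on the 30 gastrocnemius arrays, and on all 45 for soleus and for the interaction of muscle with dose, with Benjamini-Hochberg adjustment at 0.05. The same steps were tested on simulated data with known changes. Precision is limited by 4 arrays a group.

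Named genes come from a rule: the 15 largest rises and falls with groups apart, the 8 widest gaps each way, up to 4 members a list and those opposite to it, the 10 largest SDs among treated arrays, the 8 largest interactions each way, and a short fixed set. Not every gene the rule selects is printed. Members and lists were chosen with earlier results of these data known, and the 50 pairs and 13 promoter motifs after values were seen.

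Promoters are RefSeq windows on GRCr8, 27457 in all, and 9700 tested genes matched one by symbol. Motifs were searched on both strands: TCACNCCAC (SREBP), TTTGAA (CHR), TTTNNCGC (E2F), CCAAT, GAGGAAGT (PU.1), CAGCTG (E-box), TCAAGGTCA (ERR), GGGA, any 4 bases, CC (NF-kB), GAAA, any 2 bases, GAAA (interferon response), TCACGTGA (CLEAR), TGANTCA (AP-1), CC, any 6 bases, GG (SRF) and MEF2. Those not given in the results were searched with no result reported.

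Replicate numbers were checked for pairing. Deviations of same-numbered treated and vehicle arrays correlated at 0.058, -0.089, -0.028 and 0.057, so the numbers were not taken to pair animals. Alternatives covered the offset, the filter, scaling, variance model, array weights, arrays in the fit, the replicate block and leaving out each array. Centring on the tested median, averaging treated replicates 2 and 4, and a slow fibre covariate were added after seeing the data.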

Additional observations from a re-analysis of the deposited data

Results flagged for a closer look

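The response of gastrocnemius differed from that of soleus in exercised rats, tested as an interaction in limma on 45 arrays, for 6 of the 7 genes whose interaction is given. Genes were named in part for a large interaction that passed, so this count is a description only. Over all genes the interaction was higher in gastrocnemius for 16.8% and lower for 12.5%. The differences between muscles were 6.54 for Ccl2 (adjusted p = 0.00043), 6.24 for Spp1 (adjusted p = 0.000222), 5.65 for Kcnn4 (adjusted p = 0.000293), 2.46 for Insig1 (adjusted p = 0.00367), 2.31 for Idi1 (adjusted p = 0.00203) and -7.26 for Mss51 (adjusted p = 0.00963). Spp1, Ccl2 and Kcnn4 act in recruiting or activating leukocytes, Insig1 and Idi1 in sterol supply, and Mss51 in the mitochondria of fast fibres.

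In 22 of 498 groups of 4 arrays, 1 array stood apart from the other 3 by Dixon's criterion, where chance gives about 1 in 20 groups. Vehicle replicate 2 was that array for 13 genes. It was lowest for Ampd1 (21045), C8h3orf18 (1049), Clec4a3 (66), Il15 (679), Il18 (75.6), Jph1 (6235), Mmp15 (632) and Ptpn6 (30.6). It was highest for Cav3 (4224), Ccn5 (105), Eef1a1 (17034), Fyb1 (79.5) and Metrnl (613). This vehicle animal was also the richest of its group in slow fibre transcripts, with a median shift of 3.51. Vehicle replicate 1 was lowest for Atf4 (13116) and highest for Cd163 (331) and Vav1 (152), and vehicle replicate 3 was lowest for Ch25h (6.8). Among treated animals, replicate 1 was lowest for Ckb (1792) and highest for Mstn (31.4), replicate 2 was highest for Asns (672.5), and replicate 3 was lowest for Lifr (45) and Pprc1 (381).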

How the results depend on the processing

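Counts of probe sets at the high dose stayed within 1.5 times of the main counts in all alternatives run. They ranged from 3696 to 6546 higher and from 3606 to 6315 lower, apart from leaving out single arrays, which gave 4035 to 4984 higher and 3589 to 4463 lower. Among the latter, the lowest counts came without treated replicate 2 or 4. The balance between directions moved with scaling: centring on the array median gave 4420 higher and 4936 lower, quantile normalization 4352 and 5099, and centring on the tested median 3696 and 6315. The labels do not say whether replicate numbers pair the animals. With the replicate number as a block, 4962 probe sets were higher and 4407 lower, 0 passed in the interaction with exercise, and 2916 were higher and 2474 lower in the interaction with muscle, and of 249 genes described 3 gained a call and none lost it.

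Array weights estimated by limma moved both interactions. For exercise, 744 probe sets were higher and 1230 lower, against 0 in each direction in every other alternative, and leaving out single arrays gave 0 throughout. For muscle, array weights gave 5405 higher and 4543 lower against 2968 and 2523, and leaving out single arrays gave 2069 to 3356 higher and 1765 to 2892 lower. The cause was not tested. Of 200 described genes that passed, none reversed in any alternative run and 20 lost their call in at least 1, among them 15 when 1 array was left out. With 4 animals a group and vehicle signals of some risen genes close to the offset of 12.4, the size of the largest rises is less certain than their direction.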
